A study of Mus musculus with 4 samples.

Results

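Thymocytes of a preleukemic mouse that had no unique molecular identifier (UMI) of Cd4, Cd8a, Cd8b1 or Il2ra and few UMIs of cycling genes are described here. In the preleukemic library 2299 of 5226 kept cells (44.0%) met this rule, out of 16109 kept cells in the 4 libraries of the series. A cell was kept if it had more than 500 genes, under 10% mitochondrial UMIs and at least 2000 UMIs, and it was low in cycling genes if Mki67, Top2a, Pclaf, Rrm2, Tyms and Birc5 together had fewer than 3 UMIs per 10000. Cells that met the rule are called gated cells. They were compared with 1535 preleukemic cells that had a UMI of Cd8a or Cd8b1 and were as low in cycling genes (Cd8 cells), with 262 low-cycling preleukemic cells with Il2ra but no Cd4 or Cd8 (Il2ra cells), and with 208 wild type (WT) cells of the same gate. Cd8 cells could also hold UMIs of Cd4 or Il2ra. The rule used the 4 gate genes and the 6 cycling genes, so the levels of these genes are no finding.

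The study profiled whole thymus of FVB/N mice by single-cell RNA sequencing of 3′ transcript ends, after lysis of red cells and a sort for viable single cells that exclude 7-AAD. The WT mouse was 6 weeks old. The preleukemic mouse carried Tal1 and Lmo2 transgenes, both driven in thymocytes by the proximal Lck promoter, and was also 6 weeks old. The 2 leukemias from the same transgenic genotype, T-ALL#1 and T-ALL#2, came from mice 3 months old and are given only as side values. WT and preleukemic are 1 library of 1 mouse each, so no comparison below has a replicate check and none carries a test. Levels are UMIs summed over a group of cells and scaled to counts per 1000000 UMIs (CPM). Brackets hold exact 95% intervals (Poisson for levels, Clopper-Pearson for shares, conditional for ratios) that cover counting error only, not the spread between mice.

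The libraries kept between 1975 and 5679 cells with a median of 4871 to 17581 UMIs per cell. Tal1 was at 404 CPM in the preleukemic library and had no UMI in WT. The WT and preleukemic mice are labelled male, yet their libraries held Xist at 1331 and 1841 CPM and 0 and 5 UMIs of Y-linked genes. Both leukemic libraries matched their sex labels. The deposited matrix of T-ALL#2 held all barcodes, so its cells were called first. Pairs of libraries shared between 0 and 9 cell barcodes. The rule removes no doublets beyond the sort, and an upper limit on genes per cell left the preleukemic share at 44.4%.

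As background, the earliest thymocytes carry neither CD4 nor CD8 and are called double-negative. They pass a stage with CD25 (the product of Il2ra), where the beta, gamma and delta receptor genes recombine, and lose CD25 before most gain CD8 and then CD4 as alpha-beta lineage cells. Gamma-delta T cells leave this path and mostly keep neither coreceptor. TAL1 and LMO2 form a complex that takes E proteins such as E2A and HEB away from their usual partners, and E proteins drive the coreceptor, recombination and pre-receptor genes.

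The gate held a larger share of preleukemic than of WT thymocytes. It was 44.0% (42.6 to 45.4) of kept cells in the preleukemic library and 6.44% (5.62 to 7.34) in WT. Among low-cycling cells alone the shares were 55.9% of 4113 and 8.34% of 2494. In T-ALL#1 the gate held 138 cells, 2.43% (2.05 to 2.86) of those kept, and in T-ALL#2 41 cells, 2.08% (1.49 to 2.81). A cell with few UMIs can miss a gate gene that it expresses. Among low-cycling preleukemic cells with 2000 UMIs to under 4000 the share was 70.0%, from 4000 to under 8000 UMIs 54.1%, and with 8000 or more 33.7%. The same classes in WT gave 5.71%, 10.5% and 9.32%. The preleukemic share thus stood above the WT share in every depth class, and within the preleukemic library it was lower in deeper cells. Thinned to 2000 UMIs per cell, the shares were 51.6% and 16.8%. At that depth 352 of the 1535 preleukemic Cd8 cells (22.9%) and 118 of 1676 in WT (7.04%) would pass the gate. These lose their Cd8 UMIs and any of Cd4 and Il2ra. The gate thus also holds cells whose coreceptor transcripts were not sampled.

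**Figure D1:**
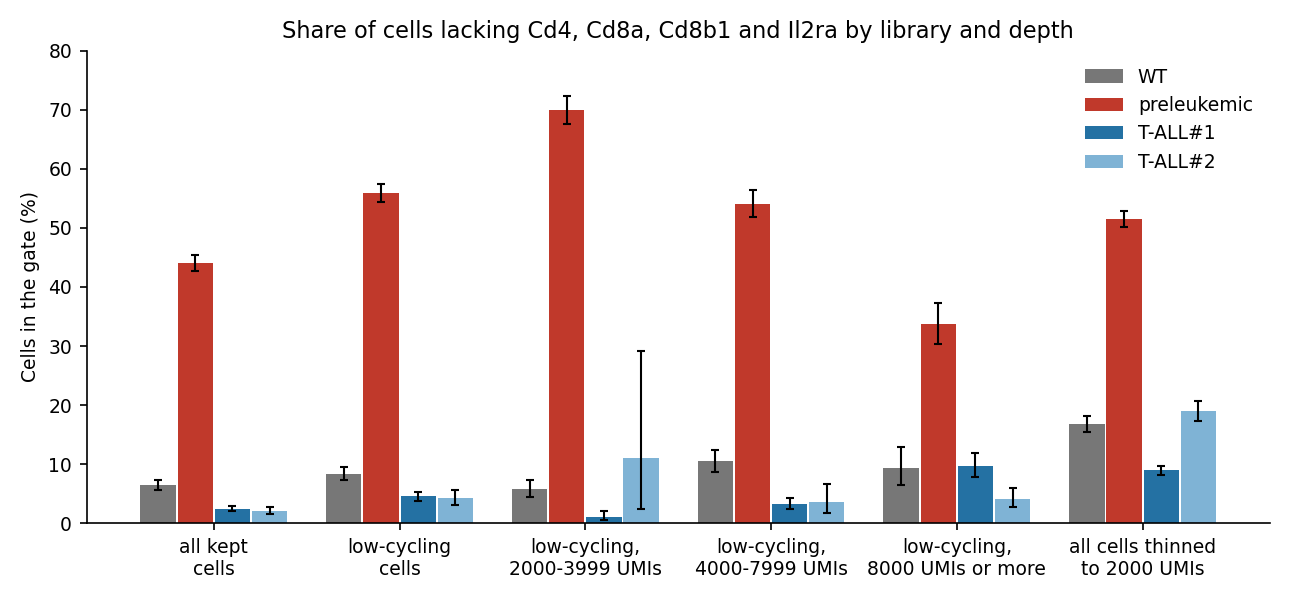
Share of cells in the gate (percent, y axis) in each library, for all kept cells and by depth, with exact 95% intervals as bars. The preleukemic library lies above WT and both leukemias in every class shown, and its share is 70.0% at 2000 UMIs to under 4000 and 33.7% at 8000 or more.

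Gated preleukemic cells were T-lineage cells. At least 1 CD3 gene was detected in 2273 of them (98.9%, 98.3 to 99.3) and Trbc1 or Trbc2 in 2291 (99.7%). Trdc, the delta receptor constant gene, was detected in 2000 cells (87.0%) and Trac, its alpha counterpart, in 1085 (47.2%). Both constant genes were found in 921 cells (40.1%, 38.0 to 42.1). In gated WT cells the order was the other way, with Trac in 177 of 208 cells (85.1%) and Trdc in 19 (9.13%). Preleukemic Cd8 cells had Trdc in 73.6% and Trac in 57.9%, and Il2ra cells had them in 86.6% and 17.6%. More cells with Trdc than with Trac were thus found in all the preleukemic groups compared, not in the gate alone. The delta genes lie inside the alpha locus and are usually deleted when alpha rearranges, but a transcript of a constant gene does not show which receptor a cell makes. RNA set free from other cells can also give a UMI. In 14 preleukemic cells with B or myeloid markers and no CD3 gene (median 4277 UMIs, against 4241 in the gate), Trdc was in 1 cell, Cpa3 in 1, Trbc2 in 4, and Trac, Rora and Tal1 in none, which allows up to 23.2%. Choosing cells without a CD3 UMI leaves out cells that took up such RNA, so these shares can be too low.

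Of the 5 genes that had been proposed to mark these cells, from earlier results on the same libraries, Cpa3 was more than 2-fold above Cd8, Il2ra and gated WT cells. Rora and Trdc were past 2-fold in some of these comparisons, Gimap6 was higher in all of them by less than 2-fold, and Cd226 was not separated from Cd8 or gated WT cells by its intervals.

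Cpa3, which encodes the carboxypeptidase of mast cell granules, was the most abundant of the 5. It stood at 3071 CPM (3039 to 3103) in gated preleukemic cells, 809 (792 to 827) in preleukemic Cd8 cells, 1305 in Il2ra cells, 14.6 (8.50 to 23.4) in gated WT cells and 3.41 in WT Cd8 cells. All 3 preleukemic groups lay above both WT groups. The ratio of gated to Cd8 cells was 3.80 (3.70 to 3.89), and that to gated WT cells 210 (131 to 361), where WT held 17 UMIs in 4 cells. In the gate 2025 cells (88.1%) held a Cpa3 UMI, and the 3 cells with most held 0.673% of all its UMIs, so the level was spread over most cells. Across single gated cells the median was 32.1 UMIs per 10000, with 11.8 and 51.0 at the quartiles, while the median Cd8 cell had 0. Other genes of mast cells were at or near 0. Of the 10 mast cell and basophil genes, Fcer1a, Mcpt8, Mcpt4, Tpsb2 and Cma1 had no UMI in the 2299 cells, Ms4a2 and Hdc were at 0.172 CPM each, Gata2 at 1.64, and Kit, the stem cell factor receptor, at 11.6 (1.72 in WT).

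Cpa3 lies on the minus strand at chr3:20215620-20242181 (GRCm38). Its promoter is printed with that of Hhex, the homeobox gene that stood beside Cpa3 in ratio to Cd8 cells, and that of Rora, since the study counts Cpa3 and Hhex among LMO2 signature genes and an E-box near a second short site is the composite motif known for the TAL1 and LMO2 complex. Capitals mark CAGNTG, the E-box, and the second motif AGATAA, a site known for the partner factors of the complex. Both were searched on both strands, and no match overlapped another. The sequences run from 250 bases before to 50 after the RefSeq start in GRCm38.p6, at chr3:20242132-20242431 (minus strand) for Cpa3, chr19:37434591-37434890 (plus) for Hhex and chr9:68653536-68653835 (plus) for Rora.
Cpa3: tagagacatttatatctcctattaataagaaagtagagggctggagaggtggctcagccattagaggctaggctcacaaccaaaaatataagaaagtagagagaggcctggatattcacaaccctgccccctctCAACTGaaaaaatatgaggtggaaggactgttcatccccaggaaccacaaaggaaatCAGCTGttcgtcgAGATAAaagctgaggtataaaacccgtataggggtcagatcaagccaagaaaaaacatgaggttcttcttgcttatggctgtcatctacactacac
Hhex: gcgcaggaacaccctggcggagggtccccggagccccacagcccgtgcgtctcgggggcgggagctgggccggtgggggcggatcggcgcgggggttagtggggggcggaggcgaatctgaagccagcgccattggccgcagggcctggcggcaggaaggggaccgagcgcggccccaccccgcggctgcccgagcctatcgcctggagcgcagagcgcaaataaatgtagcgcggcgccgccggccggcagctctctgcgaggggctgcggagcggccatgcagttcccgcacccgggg
Rora: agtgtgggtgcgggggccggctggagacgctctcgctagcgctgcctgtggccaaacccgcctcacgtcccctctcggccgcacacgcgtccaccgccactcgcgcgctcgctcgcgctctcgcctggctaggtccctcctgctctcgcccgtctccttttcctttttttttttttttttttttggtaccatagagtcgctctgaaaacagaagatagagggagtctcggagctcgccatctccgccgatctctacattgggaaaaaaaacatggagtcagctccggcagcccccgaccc
The Cpa3 window held 2 matches of CAGNTG and 1 of AGATAA, and the Hhex and Rora windows held neither. Of 32817 RefSeq promoter windows of 300 bases, 51.4% held CAGNTG and 11.2% AGATAA. These are matches of letters and not measured binding. Only 1 start per gene was searched, and reads of 3′ ends do not show which start the cells use.

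Trdc (chr14:54142851-54148868, plus strand) stood at 1800 CPM (1775 to 1824) in gated preleukemic cells, 962 (943 to 982) in Cd8 cells, 730 (695 to 766) in Il2ra cells and 246 (219 to 277) in gated WT cells. The ratio to Cd8 cells was 1.87 (1.83 to 1.92), under the 2-fold limit used here for calls, and that to gated WT cells 7.30 (6.50 to 8.23). The WT value came from few cells, with 44.9% of its UMIs in 3 of them, against 1.83% in the preleukemic gate. Rora (chr9:68653786-69388246, plus strand), a nuclear receptor of innate lymphoid and Th17 cells, stood at 417 CPM (406 to 429), against 160 (152 to 168) in Cd8 cells, 213 in Il2ra cells and 50.7 (38.6 to 65.4) in gated WT cells. Its ratio was 2.61 (2.46 to 2.76) to Cd8 cells and 8.23 (6.37 to 10.8) to gated WT cells. Gimap6, a GTPase of lymphocyte survival, stood at 469, 426, 305 and 356 CPM in the same order of groups. Its ratios were 1.10 (1.06 to 1.15) to Cd8 cells, 1.32 (1.19 to 1.46) to gated WT cells and 1.53 (1.42 to 1.66) to Il2ra cells, each above 1 by counting error alone. Cd226, an activating receptor of NK and T cells, was at 45.2, 43.1, 28.4 and 46.4 CPM, and its intervals overlapped between the gate, Cd8 cells and gated WT cells.

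**Figure D2:**
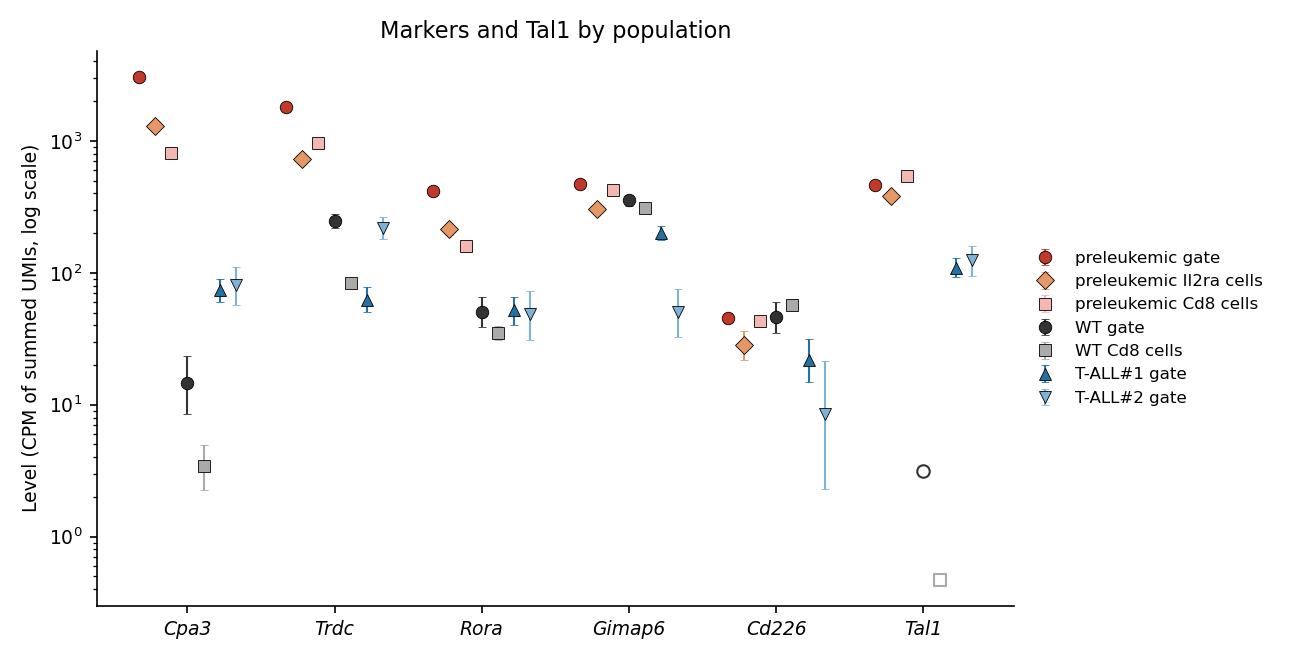
Levels of Cpa3, Trdc, Rora, Gimap6, Cd226 and Tal1 (CPM, log axis) in gated, Il2ra and Cd8 preleukemic cells, gated and Cd8 WT cells and gated cells of both leukemias, with exact 95% intervals as bars and open symbols at the upper limit where a group had no UMI. Cpa3 separates the preleukemic groups from all others (3071 CPM in gated cells against 14.6 in gated WT cells), while Gimap6 and Cd226 lie close together in gated preleukemic and gated WT cells.

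Against Cd8 cells of the same mouse, few genes differed by 2-fold. Of 3499 genes at 50 CPM or more in either group, 49 were at least 2-fold higher in gated cells (1.4%) and 20 at least 2-fold lower (0.572%). With TMM scaling in place of totals the counts were 36 and 28, since it moved every log2 ratio by -0.12. The median log2 ratio over all genes was 0.11. Gated cells had fewer UMIs than Cd8 cells (median 4241 against 5278) and a lower ribosomal share (17.1% against 21.6%), and their Xist level was 2525 CPM against 1791. The part of depth and RNA makeup in the gene differences was not tested, apart from the depth classes given below.

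Genes of the gamma-delta receptor were on the higher side. Of 5 genes measured at 50 CPM among 11 listed, 3 were past 2-fold and none was lower, with a median log2 ratio of 1.13 against 0.11 for all genes. Tcrg-C2, a gamma constant gene, stood at 575 CPM in gated and 262 in Cd8 cells, a ratio of 2.19 (2.10 to 2.29). Tcrg-C1 had a ratio of 2.37 and the variable segment Trgv2 one of 2.35, with Tcrg-C4 at 1.86. The gamma constant genes are near-identical copies, so reads can be split among them. The gates of WT and T-ALL#1 stood past 2-fold above their own Cd8 cells in these genes as well, and that of T-ALL#2 did not. In WT the ratio was 2.93 for Trdc, 3.40 for Tcrg-C2, 2.95 for Tcrg-C1 and 3.31 for Tcrg-C4. In T-ALL#1 it was 22.2, 3.21, 3.43 and 4.29 in the same order. Trdc was found in 11 of 138 gated cells there, and in 19 of 208 in the WT gate. In T-ALL#2 0 of 4 measured genes of this list were past 2-fold, with log2 ratios from 0.10 to 0.72. Sox13, a transcription factor of gamma-delta cells, was at 74.4 CPM against 24.1, a ratio of 3.08 (2.67 to 3.57). Sox4 was at 1.34-fold and Cd24a at 1.07-fold, and Blk and Zbtb16, which are known from gamma-delta effector cells, were under 5 CPM in the gate. Il17a had no UMI.

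Receptor chains common to T cells are given by their values, since with so few genes past 2-fold among all genes (1.4% and 0.572%) a short list would seldom hold one. None of 7 alpha-beta receptor and CD3 genes was past 2-fold, with a median log2 ratio of -0.05. Trac was at 245 CPM in gated and 297 in Cd8 cells (0.824, 0.782 to 0.867), Trbc1 at 3484 and 3555, and Cd3e at 508 and 528. None of 11 T-cell signaling genes was past 2-fold either, among them Lck, the kinase whose promoter drives the transgenes, at 976 and 1077 CPM. Tal1 itself was slightly lower in gated cells, at 460 CPM (448 to 473) against 541 (526 to 555). None of 7 measured TAL1 complex and E protein genes was past 2-fold, which at those shares over all genes says little of the list. Myb, a progenitor transcription factor, came closest at 916 against 479 CPM, a ratio of 1.91 (1.85 to 1.98).

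Further genes higher in gated cells came from several families. Hhex, a homeobox factor of early progenitors, stood at 134 CPM (127 to 140) against 35.5 (31.9 to 39.4), a ratio of 3.77 (3.35 to 4.24). Myo6, an unconventional myosin, had a ratio of 5.06, with 106 CPM in gated cells. Angpt1, which encodes the ligand of the Tie2 receptor, had a ratio of 3.07. Etv6, a transcriptional repressor of the ETS family, was at 2.75-fold and Cdk6, a G1 cyclin-dependent kinase, at 2.58-fold. Itga4, the alpha 4 integrin chain, was at 335 against 131 CPM, 2.55-fold, and the only one of 5 measured migration receptors past the limit. Lyl1, the closest paralog of Tal1, was under 50 CPM in both groups and thus not called, with a ratio of 3.87 (3.08 to 4.92). Of 6 preleukemic-restricted genes, a list chosen on these libraries and thus no independent evidence, Cpa3, Mdga1, Osbpl1a and Atp8b4 were higher, at 2.47-fold to 3.80-fold, and Ly6c1 was lower.

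The genes lower in gated cells included recombination and CD8-stage genes. Rag1, the recombinase subunit, stood at 41.7 CPM (38.0 to 45.6) against 174 (166 to 183), 4.18-fold lower. Dntt, which adds bases at receptor junctions, was at 586 against 878 CPM, within the limit. Endou, an endoribonuclease of the CD4+CD8+ stage, was 2.22-fold lower, while Arpp21 and Tcf12 of the same list were 1.20-fold and 1.22-fold lower. In WT the gated cells were also below their Cd8 cells in these genes, by 75.2-fold for Rag1, 25.3-fold for Dntt and 18.5-fold for Endou. Ly6d, a surface protein of early lymphoid and B lineage cells, stood at 77.6 CPM against 372, 4.79-fold lower. Thy1, the pan-T surface protein, was 4.42-fold lower at 42.6 against 188 CPM. The class I genes H2-Q2 and H2-Q1 and the interferon-inducible Ifi27l2a were 2.58-fold to 2.66-fold lower. Ccl5, a chemokine of cytotoxic and innate-like T cells, was 4.48-fold lower, but 63.2% of its 462 UMIs in the gate came from 3 cells.

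Markers of other cell types were counted in the gate. Cd74, the invariant chain of antigen-presenting cells, was 4.96-fold above Cd8 cells, with its 1343 UMIs in 33 of 2299 cells. Igkc had 383 UMIs in 12 cells, and S100a8, S100a9, Siglech and Csf1r had no UMI. The summed level of the 8 B cell genes was 154 CPM against 389 in Cd8 cells, most of it Ly6d, and that of the 12 myeloid and dendritic genes 376 against 185, most of it Cst3 and Cd74. Cells with 3 or more UMIs of these lists numbered 203 (8.83%), and 21 (0.913%) by the lists without Cst3, Ly6d and Cd79b, a trimming chosen after seeing the data. Without the 203 cells 53 genes were higher and 21 lower, and without the 21 cells 49 and 20, each with like cells left out of the Cd8 group. Of the 5 measured stress genes none was past 2-fold (median log2 ratio 0.31, against 0.11 for all genes). At the shares over all genes (1.4% higher and 0.572% lower) this says little of the list.

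**Figure D3:**
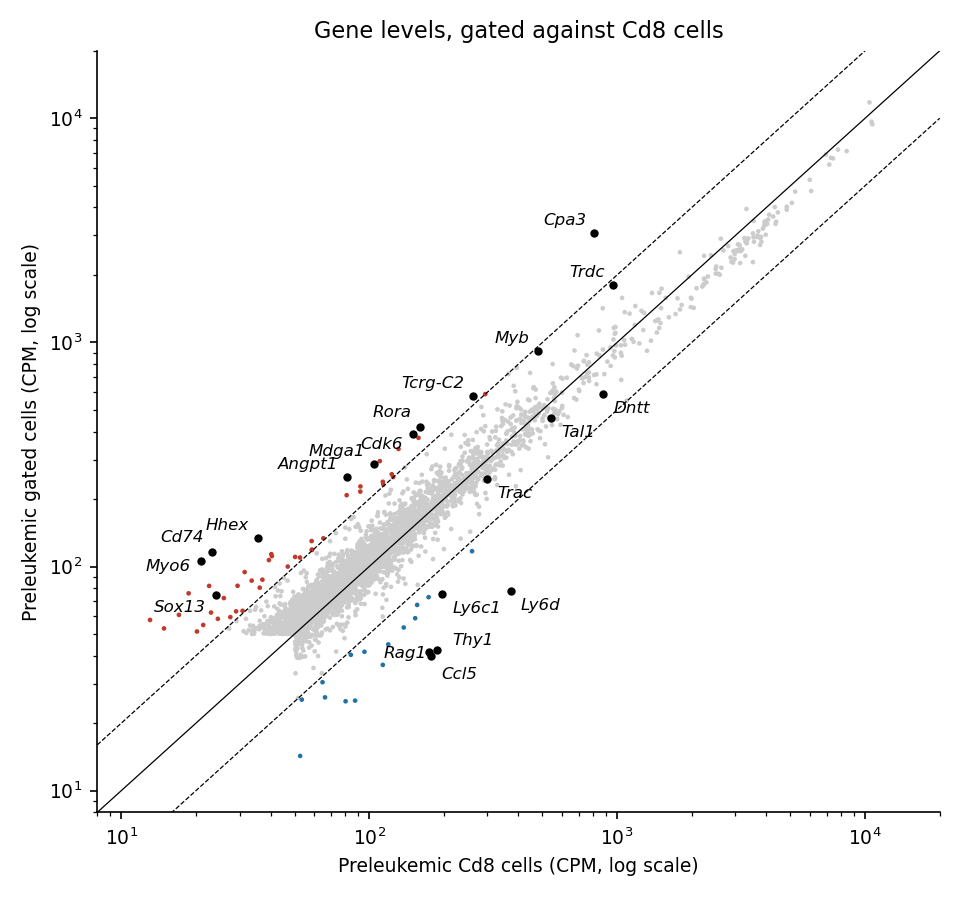
Level of each gene (CPM, both axes log) in preleukemic Cd8 cells (x) and gated cells (y) for genes at 50 CPM or more, with dashed lines at 2-fold and named genes labelled. Most genes lie between the lines, 49 lie above the upper one and 20 below the lower one, with Myo6, Cd74, Cpa3 and Hhex farthest above and Ly6d, Ccl5, Thy1 and Rag1 farthest below among genes at 100 CPM or more in either group.

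The levels of several genes followed the number of Cd8 UMIs in the cell. Low-cycling preleukemic cells without Cd4 or Il2ra were thinned to 2000 UMIs and grouped by 0, 1, 2, 3 and 4 or more UMIs of Cd8a and Cd8b1, which gave 2695, 352, 152, 113 and 346 cells. Cpa3 stood at 2986, 1463, 375, 186 and 134 CPM in these groups, lower at every step, with overlapping intervals only for the last pair (134 to 251 and 108 to 165). Hhex, at 122, 55.4, 42.8, 4.42 and 7.23 CPM, and Mdga1, a cell-surface glycoprotein, at 292, 186, 78.9, 53.1 and 17.3 CPM, showed the same order except between the last groups of Hhex. Trdc was at 1602, 1128, 878, 642 and 627 CPM, a shallower slope. Rora was at 452, 288, 135, 150 and 126 CPM. Rag1 ran the opposite way at 50.1, 86.6, 171, 168 and 286 CPM, as did Ly6d at 93.9, 250, 434, 438 and 730 CPM. Tal1 was at 492, 513, 576, 606 and 660 CPM, and Gimap6 was flat at 492, 490, 474, 469 and 480 CPM. In WT cells grouped alike, Mdga1 and Tal1 had no UMI in any group, and Cpa3 had none from 1 Cd8 UMI upwards. Cells with 0 Cd8 UMIs at this depth include cells of the next groups whose Cd8 was not sampled. The groups with few Cd8 UMIs can likewise mix cells of lower and higher Cd8. A gradual change and a mixture of distinct kinds of cells therefore cannot be told apart here.

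**Figure D4:**
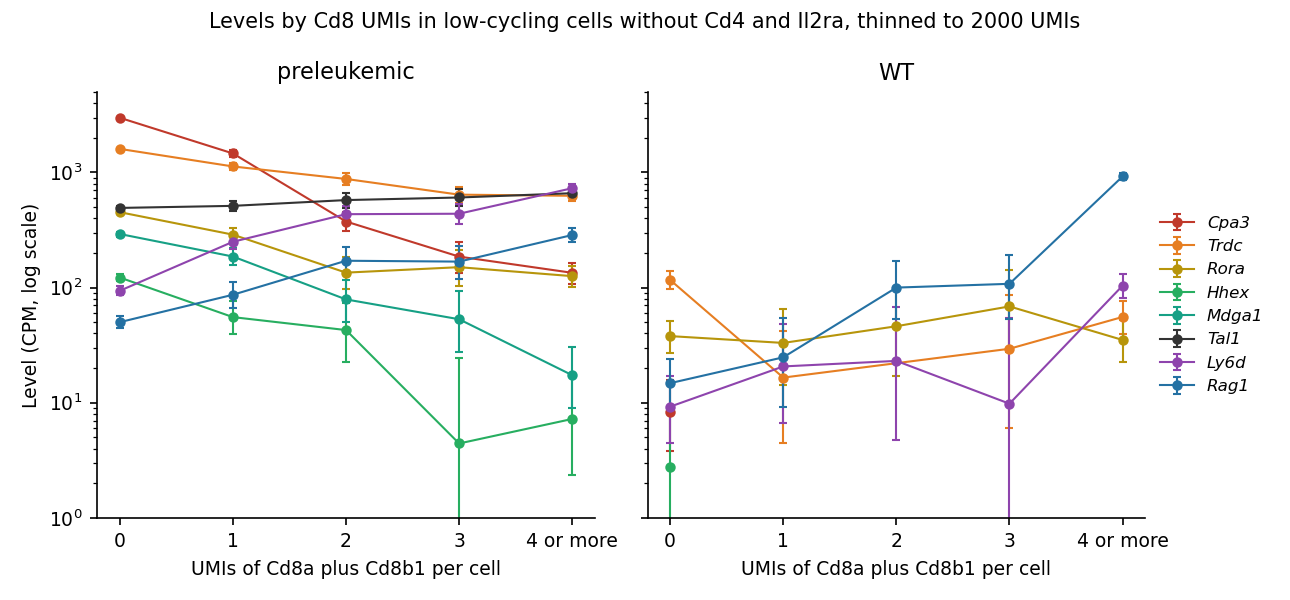
Level of selected genes (CPM, log axis) in low-cycling preleukemic and WT cells thinned to 2000 UMIs, by the number of Cd8a and Cd8b1 UMIs in the cell (x), with exact 95% intervals and points at 0 left out. In preleukemic cells Cpa3 goes from 2986 CPM at 0 UMIs to 134 at 4 or more while Rag1 goes from 50.1 to 286.

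Cells just outside the limit on gate genes lay between gated and Cd8 cells in several genes. Cd226, at 36.2 CPM, and Trac, at 243 CPM, were slightly below both groups. The 513 cells with a single gate-gene UMI in all had Cpa3 at 1884 CPM, Trdc at 1195, Rora at 279 and Rag1 at 80.2. On the limit for UMIs per cell, 76 cells just inside it (under 200 UMIs above) had Cpa3 at 2790 CPM and 35 cells just outside (under 200 UMIs below) had 3249. On the cycling limit, 231 cells from 2 to under 3 per 10000 had Cpa3 at 2920 CPM, and 108 cells from 3 to under 4 had 2540. Depth within the gate also moved the levels. In cells from 2000, from 4000 and from 8000 UMIs upwards, each class ending where the next begins, Cpa3 in the gate was at 3544, 3409 and 1868 CPM. Its ratio to Cd8 cells of the same class was 3.54, 3.73 and 2.87. Rora had ratios of 2.14, 2.34 and 1.42, so it was past 2-fold in both shallower classes and not in the deepest. Trdc had ratios of 1.67, 2.06 and 1.83, past 2-fold in the middle class alone. Rag1 was lower by 10.5-fold, 4.01-fold and 2.61-fold, and Ly6d by 6.41-fold, 5.52-fold and 3.35-fold. Every one of these genes kept its side in all classes. Gimap6 did not (1.02, 1.03 and 0.938).

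Gated cells were also compared with the Il2ra cells of the same mouse, and several genes past 2-fold against Cd8 cells were past it here too, among them Cpa3, Hhex, Mdga1, Angpt1 and Rag1. Of 3611 genes 82 were at least 2-fold higher in gated cells (2.27%) and 56 lower (1.55%). With TMM scaling the counts were 54 and 81. The Il2ra cells were deeper, with a median of 7743 UMIs, and had a ribosomal share of 26.9%. Their part in the differences was not tested. Trac stood at 245 CPM in gated and 34.5 in Il2ra cells, 7.10-fold higher, and Trbc1 at 2.20-fold. Trdc was 2.47-fold higher (2.35 to 2.59), or 1.99-fold in cells thinned to 2000 UMIs, and no gamma gene was past 2-fold higher. Tcrg-C4 was at 317 against 624 CPM, 1.97-fold lower, Tcrg-C2 1.58-fold lower and Tcrg-C1 1.26-fold lower, so the gamma-delta receptor list as a whole had a median log2 ratio of -0.49. Hhex was 5.77-fold higher (4.39 to 7.74), Cpa3 2.35-fold and Mdga1 2.67-fold higher. Ccr9, the thymic homing receptor, stood at 681 against 234 CPM, 2.91-fold higher, Gimap4 was 2.94-fold higher, and Cd28, the costimulatory receptor, 2.31-fold.

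Among genes lower in gated than in Il2ra cells, Il7r, the interleukin 7 receptor of early thymocytes, stood at 21.8 against 153 CPM, 7.02-fold lower. Id2, an inhibitor of E proteins, was 3.52-fold lower. Notch1 was at 105 against 245 CPM, 2.33-fold lower, and Ptcra, the pre-receptor chain, at 3.70 against 11.8 CPM. Rag1 was 2.40-fold and Dntt 2.04-fold lower, both recombination genes measured. Cd93, a progenitor surface lectin, was 2.88-fold lower. The class Ib genes H2-T3 and H2-T22 were lower, at 5.56-fold for H2-T3, and Plac8 was 3.72-fold lower. Mcm6, a replicative helicase subunit, and Cdca7, a Myc-responsive gene, were at 45.8 against 119 and 73.0 against 198 CPM although both groups had passed the same limit on cycling genes.

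Against gated WT cells the differences were many. Of 3794 genes 386 were at least 2-fold higher in gated preleukemic cells (10.2%) and 253 lower (6.67%). A gene under 50 CPM in either gate was measured through the other gate alone, which set its direction. The groups are 1 mouse each and differ in makeup and in size, 2299 against 208 cells, so a difference between genotypes and a difference between the kinds of cells in the gate cannot be told apart. Xist was at 2525 against 1100 CPM, and the ribosomal share 17.1% against 23.1%. Of 6 measured stress genes 4 were lower, such as Junb at 2.48-fold. The part of these in the gene differences was not tested.

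Mature T-cell genes and NK and NKT genes were among those on the lower side. Of 11 measured mature and egress genes 9 were lower, with a median log2 ratio of -2.30 against 0.12 for all genes. Itm2a, a membrane protein of selected thymocytes, was at 49.3 CPM in preleukemic and 849 in WT cells, 17.2-fold lower. Ccr7, the receptor for medullary and lymph node chemokines, was 16.4-fold lower and Il7r 12.8-fold. Klf2 and S1pr1, a transcription factor and the receptor of thymic egress under its control, were 6.13-fold and 6.76-fold lower. Cd5, a negative regulator of receptor signals, stood at 38.1 against 430 CPM, 11.3-fold lower, and Cd2, Cd6 and Cd28 were 3.30-fold to 3.75-fold lower. Trac was 3.40-fold lower at 245 against 832 CPM, with Trbc2 level at 3938 against 3733. Bcl2, the survival factor, was 4.85-fold lower. Between preleukemic and WT Cd8 cells, Bcl2 and 7 of 10 measured mature and egress genes were also lower, with a median log2 ratio of -1.60 for that list. Of 12 NK and NKT genes 8 were at 50 CPM or more in either gate. Of these 7 were lower in the preleukemic gate, with a median log2 ratio of -4.19, such as Nkg7 at 3.81-fold and Ccl5 at 10.1-fold. Members such as Fcer1g (1.55 against 140 CPM) and Xcl1 (2.76 against 107 CPM) met that limit through WT alone, so it set their direction. The same holds for Itm2a and Il7r of the mature list and for Cd5. Only 7 of the 11 mature genes reached 50 CPM in the preleukemic gate or preleukemic Cd8 cells. The limit thus also set the direction of the rest, which the count of 9 and the median of -2.30 include. The WT Ccl5 level came from 20 cells, 3 of which held 47.2% of it.

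The TAL1 complex list held genes in both directions. Tal1 was at 460 CPM against no UMI in WT. Its ratio was 179 against a floor of 3 UMIs over the WT group, with an exact lower 95% limit of 145. Lmo2 was at 7.15 against 6.01 CPM and whether these counts include the transgene is not given in the sources used here. Runx1 was 3.73-fold, the E protein genes Tcf12 and Tcf3 2.96-fold and 2.23-fold, and Myb 11.6-fold higher (9.44 to 14.4). The E protein inhibitors Id2 and Id3 were 12.4-fold and 18.7-fold lower, with Id3 at 22.6 against 424 CPM and thus measured through WT alone. All 5 measured gamma-delta receptor genes were higher, at 4.99-fold to 7.40-fold, with Trgv2 under 50 CPM in WT. Between preleukemic and WT Cd8 cells all 5 were higher too (median log2 ratio 3.38, against 2.74 between the gates), so this was not particular to the gate. Id2 and Id3 were also lower there, and of the TAL1 complex list only Tal1 was past 2-fold higher. Between the gates, genes of the CD4+CD8+ stage were mixed. Arpp21 was 10.6-fold, Endou 8.02-fold and Tcf12 2.96-fold higher, whereas Tesc and Slco3a1 were 54.9-fold and 30.6-fold lower. Dntt was 21.3-fold higher (15.1 to 31.2), at 586 against 27.5 CPM, and thus measured through the preleukemic gate alone. Of the targets that the study ascribes to TAL1 and LMO2, a list not independent of these libraries, Cpa3 and Hhex were higher, Gimap4 was 4.29-fold lower and 6 of 9 were within the limit.

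Several genes were near 0 in gated WT cells. Mdga1 had no UMI there and was at 286 CPM in preleukemic cells, a ratio of 111 against that floor with an exact lower limit of 90.4. Arhgap6 and Tbx4, a T-box factor, had none either, with ratios of 64.5 and 45.3 against the floor and exact lower limits of 52.4 and 36.8. Osbpl1a, an oxysterol-binding protein, had 3 UMIs in WT, a ratio of 88.4 (30.2 to 429). At the other end, S100a8 and S100a9, granule proteins of neutrophils, had no UMI in the preleukemic gate, and their 2112 and 2519 UMIs in WT came from 1 cell. Ngp and Lyz2 came from 2 WT cells. The lower counts of such genes thus rest on 1 or 2 cells. In the WT gate 30 cells (14.4%) had 3 or more UMIs of the B and myeloid lists, and 13 (6.25%) by the lists without Cst3, Ly6d and Cd79b. Leaving such cells out of both gates gave 390 genes higher and 240 lower by the full lists, and 385 and 229 by the trimmed lists.

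**Figure D5:**
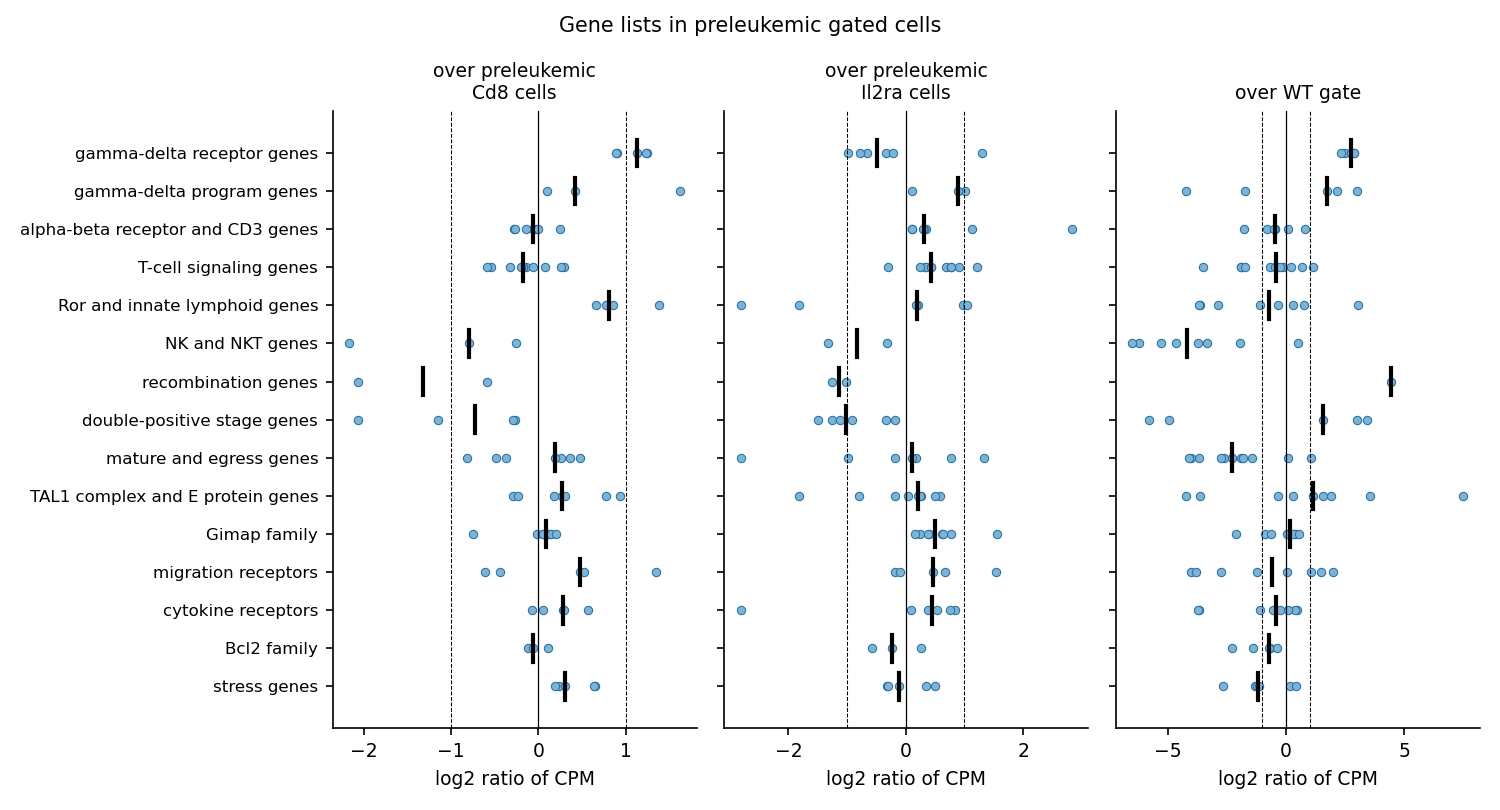
Log2 ratio of gated preleukemic cells over each reference group for the genes of each list at 50 CPM or more (dots), with the list median as a black bar and dashed lines at 2-fold. Mature and NK genes lie on the lower side against gated WT cells (medians -2.30 and -4.19), while gamma-delta receptor genes lie on the higher side against Cd8 and WT cells and not against Il2ra cells (medians 1.13, 2.74 and -0.49). Some of the mature and NK genes reach 50 CPM in WT alone.

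Within the preleukemic gate the cells were not uniform. Thinned to 2000 UMIs, 1934 cells had a Cpa3 UMI and 365 had none. Cells with Cpa3 had more Rora (558 against 248 CPM, a ratio of 2.25), Mdga1 (3.47), Hhex (3.17), Cdk6 (3.20), Myo6 (5.20), Tcrg-C1 (2.74) and Myb (2.28). Trdc was at 1856 against 1088 CPM, a ratio of 1.71. The cells without Cpa3 had more Ccl5, at 148 against 6.72 CPM, and Id3, at 39.7 against 10.3 CPM. They also had 2.67-fold more Rag1, 2.81-fold more Thy1 and 2.55-fold more Ly6d. Tal1 was level between them, at 483 and 500 CPM (0.967, 0.864 to 1.08).

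Cells with and without Trac differed in other genes. A Trac UMI was found in 701 thinned cells and not in 1598. Those with it had Trdc at 1872 against 1674 CPM, so Trac and Trdc did not exclude each other. They had more Trbc1 (4469 against 2937 CPM, 1.52-fold), Itm2a (1.86-fold), Id3 (2.64-fold, on 37 and 32 UMIs), Ccr9 (1.45-fold), Hhex (1.60-fold) and Myo6 (2.17-fold). They had less Rag1 (14.3 against 46.0 CPM), Dntt (348 against 581 CPM), Endou (56.3 against 113 CPM) and Tcrg-C2 (372 against 546 CPM). Cpa3 was equal within counting error, at 3302 and 3332 CPM (0.991, 0.957 to 1.03), as was Rora (0.938, 0.857 to 1.03). Among 1767 cells with Trdc and 532 without, those with Trdc had more Tcrg-C1 (1.60-fold), Tcrg-C2 (1.63-fold), Trbc1 (1.66-fold) and Myo6 (2.21-fold). They had less Trac (234 against 318 CPM) and Rag1 (29.4 against 59.2 CPM).

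In the leukemic libraries the gate was small and low in these genes. Cpa3 stood at 73.7 CPM in the 138 gated cells of T-ALL#1, where 18 cells held it, and at 80.1 CPM in the 41 of T-ALL#2, where 3 cells did. Their own Cd8 cells had 3.72 and 1.46 CPM. Rora was at 51.8 and 48.5 CPM in the gates, against 9.47 and 14.1 in Cd8 cells. Trdc was at 62.8 CPM in the gate of T-ALL#1, where 11 cells held it, and 2.83 in its Cd8 cells. In T-ALL#2 it was at 219 CPM in the gate and 165 in Cd8 cells. The gated cells of both leukemias had a larger share of cells with B or myeloid markers, 26 of 138 (18.8%) and 10 of 41 (24.4%), against 203 of 2299 (8.83%) in the preleukemic gate. By the list without Cst3, Ly6d and Cd79b these were 13 (9.42%), 7 (17.1%) and 21 (0.913%). Their part in the leukemic values was not tested. Every Cpa3, Trdc and Rora level in the leukemic gates lay below its preleukemic value.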

How the data were processed

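Deposited files were gene-by-barcode matrices of raw UMI counts, which the authors made with Cell Ranger 3.0.2 (WT, preleukemic, T-ALL#1) or 4 (T-ALL#2) on mm10, per the file headers and labels. The labels name 3′ chemistries but do not say which library had which. Of 31053 gene identifiers 30934 (99.6%) were found in GENCODE M21. In T-ALL#2 barcodes above 3416 UMIs, a limit set from the 99th percentile of the 10000 deepest, were taken as cells. Genes and lists were chosen with earlier results of these data known. Genes named are the 5 markers, members of 25 lists, and per comparison the 12 highest and 12 lowest ratios at 100 CPM or more. Counts were summed per group and scaled to CPM; a gene was called at a ratio of 2 or more either way, at 50 CPM or more in a group, and sums under 3 UMIs were set to 3. The procedure was tested on simulated data. With 1 library per group no test was made. Thinning used 2000 UMIs per cell and seed 1. edgeR served only for TMM factors. Software was Python 3.11.15, NumPy 2.4.6, SciPy 1.17.1, pandas 2.3.3, Matplotlib 3.10.9, R 4.3.3 and edgeR 4.0.16. Alternatives are given in the closing section. Some members of the lists are not reported here.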

Additional observations from a re-analysis of the deposited data

Results flagged for a closer look

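Ccl5 moved in opposite directions between gated and Cd8 cells in the preleukemic and WT libraries. The log2 ratio of gated over Cd8 cells was -2.16 in the preleukemic mouse and 4.18 in WT. With 1 library per group the difference was not tested. The Ccl5 UMIs came from few cells: in the gates 47 cells of the preleukemic library and 20 of WT held them, and 3 cells held 63.2% and 47.2% of the UMIs.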

How the results depend on the processing

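No paired analysis was possible because each of WT and preleukemic is 1 library. Of 74 shares and gene counts under alternatives 50 stayed within their limits and 24 did not. Of 120 marker ratios under alternatives 77 counted as the same and 43 as moved. The preleukemic share of 44.0% was 51.6% in thinned cells, 36.4% with at least 4000 UMIs, 36.1% with a cycling limit of 1 per 10000, 40.1% without cells of the B or myeloid lists and 49.0% without the condition on Il2ra. The WT share of 6.44% was 16.8%, 7.43%, 5.45%, 5.51% and 7.49% in the same order. Genes higher than in Il2ra cells numbered 134 in thinned cells and 54 with TMM, against 82. Without a filter on low levels, 640 genes were higher and 492 lower than in Cd8 cells, 1414 and 1238 than in gated WT cells, and 573 and 731 than in Il2ra cells. At 200 CPM or more the counts were 17 and 2, 106 and 70, and 22 and 11. No marker ratio past 2-fold changed direction. The depth classes given in the results are not among the alternatives, and some of their ratios to Cd8 cells lie outside the ranges that follow. Over all alternatives the Cpa3 ratio lay between 3.50 and 4.81 to Cd8 cells and between 166 and 359 to gated WT cells. In the same order the Rora ratio lay between 2.36 and 2.63 and between 6.19 and 11.9, and the Trdc ratio between 1.73 and 1.96 and between 6.50 and 13.8. To Il2ra cells these ratios lay between 2.20 and 2.38, 1.33 and 1.98, and 1.99 and 2.67, and the Trdc ratio of 2.47 was below 2 only in thinned cells. The Cd226 ratio lay on both sides of 1 in all 3 comparisons. The list without Cst3, Ly6d and Cd79b was chosen after seeing the data. The main limits are 1 mouse per group, the 208 cells of the WT gate, and gate genes that shallow cells can miss.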
